A study of Mus musculus with 10 samples.

Results

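The lipoprotein lipase system and fatty acid uptake were represented by 9 genes: Lpl, Gpihbp1, Lmf1, Angptl4, Cd36, Slc27a1, Fabp4, Fabp5 and Vldlr. They were selected by gene symbol in a deposited table of 56748 mouse genes, and each of the 9 was present and abundant enough to be tested. The table holds RNA-seq counts from primary differentiated adipocytes, made from the stromal vascular fraction of inguinal fat of male mice aged 6 to 8 weeks and differentiated in culture for 6 to 8 days. Control cultures (5 libraries) came from mice with a floxed Fam20c gene and no Cre, and KO cultures (Ad-Fam20c–KO, 5 libraries) from Fam20c-flox mice that also carried Adiponectin-Cre, which is active in adipocytes. Fam20c encodes a secreted serine/threonine kinase. Both groups had been differentiated with rosiglitazone, an agonist of the nuclear receptor PPARG, together with 3-isobutyl-1-methylxanthine, dexamethasone and insulin. The cultures grew from a fraction that also holds progenitors, macrophages, endothelial cells and mural cells, so the RNA of a library was not of adipocytes alone. The comparison asked which transcripts differed between KO and control cultures. The KO cultures alone carried Cre, so loss of Fam20c and presence of the Cre transgene cannot be told apart here.

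Lipoprotein lipase splits triglycerides of circulating lipoproteins so that tissues can take up the fatty acids. Adipocytes make the enzyme, LMF1 helps it fold in the endoplasmic reticulum, and GPIHBP1, a protein of capillary endothelial cells, binds it, carries it to the vessel lumen and holds it there. ANGPTL4 is a secreted inhibitor of the enzyme, and VLDLR is a receptor for triglyceride-rich lipoproteins. CD36 and the transporter FATP1, encoded by Slc27a1, take up fatty acids at the cell surface, and FABP4 and FABP5 bind them in the cytosol. Lpl, Angptl4, Cd36, Slc27a1 and Fabp4 are textbook target genes of PPARG.

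The libraries held 18949106 to 26237825 counts, and the 9 genes together took 3.58% to 4.04% of a library. Fam20c, the targeted gene, had 10.2 ± 1.29 CPM (counts scaled by library size, SD, n = 5) in control libraries and 7.30 ± 0.449 CPM in KO libraries, with no overlap between the groups. Its log2 fold change of -0.49 passed (Benjamini-Hochberg adjusted p = 0.0137 by edgeR's quasi-likelihood test), and the counts cover the whole gene without separating the floxed part. Along the first principal component, with 23.5% of the variance, control library 4 and KO library 1 stood apart from the rest of their groups. All 4 defining adipocyte markers were present. Adipoq, which encodes adiponectin, had 1759 ± 81.2 CPM in the control and 1820.4 ± 41.5 CPM in the KO libraries, and 0 of 15 adipocyte markers passed edgeR's test. At an unadjusted p under 0.05, 4 of these 15 were higher and 0 lower, against 11.9% of all genes tested in either direction. With DESeq2 and limma voom 1 was higher, Lipe, which encodes hormone-sensitive lipase.

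Of the 9 genes, Gpihbp1 was lower in KO cultures and the other 8 did not pass the test (the plots of CPM by library and of fold changes show both). A gene passed where its adjusted p over all 14270 genes tested was under 0.05. In the same fit, 2.17% of all genes passed, 1.86% as lower and 0.308% as higher in KO cultures, against 1 lower and 0 higher of the 9. At an unadjusted p under 0.05, 1 of the 9 was lower and 2 (Fabp4 and Fabp5) were higher, against 11.9% of all genes in either direction. The Wald test of DESeq2 called 1 of the 9 lower and 1 higher, against 359 lower and 125 higher of all 14270 genes. The median log2 fold change was 0.01 over the 9 genes and -0.00085 over all genes tested.

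**Figure D1:**
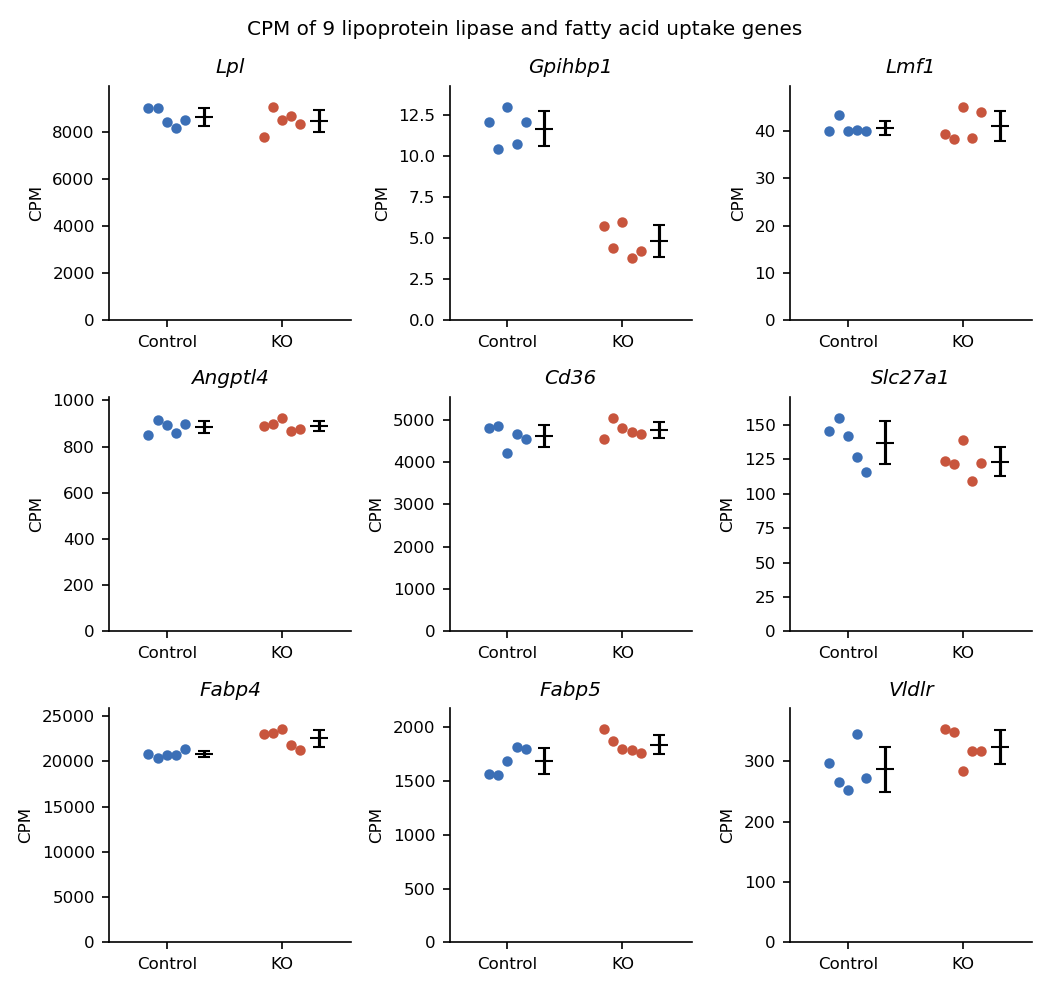
CPM of each of the 9 genes in every library, with control libraries in blue, KO libraries in red and the mean ± SD of each group (n = 5) as black bars, on axes that start at 0. The KO libraries of Gpihbp1 (3.80 to 6.02 CPM) lie below all its control libraries (10.4 to 13.0 CPM), and in the other 8 genes the groups overlap.

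Gpihbp1 (ENSMUSG00000022579.11) lies on chromosome 15 from 75596628 to 75599481, plus strand, in GENCODE M21 on GRCm38. It had 12.1, 10.4, 13.0, 10.7 and 12.1 CPM in the control libraries in order of their number, and 5.75, 4.43, 6.02, 3.80 and 4.22 CPM in the KO libraries. All KO libraries lay below all control libraries, as 2.66% of the genes tested did, and the lowest control library was above the highest KO library. The mean was 11.7 ± 1.06 CPM in control and 4.85 ± 0.982 CPM in KO libraries (SD, n = 5 each). The log2 fold change was -1.26, with a standard error of 0.125 and a 95% interval from -1.54 to -0.99 (Benjamini-Hochberg adjusted p = 0.000136 by edgeR's quasi-likelihood test). On a linear scale the transcript was 2.40-fold lower, with an interval of 1.99- to 2.90-fold. By p-value it ranked 22 of the 14270 genes, and 0.533% of the genes tested passed as lower by at least 2-fold. These values rest on few fragments, 222 to 286 counts per control library and 83 to 138 per KO library.

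**Figure D2:**
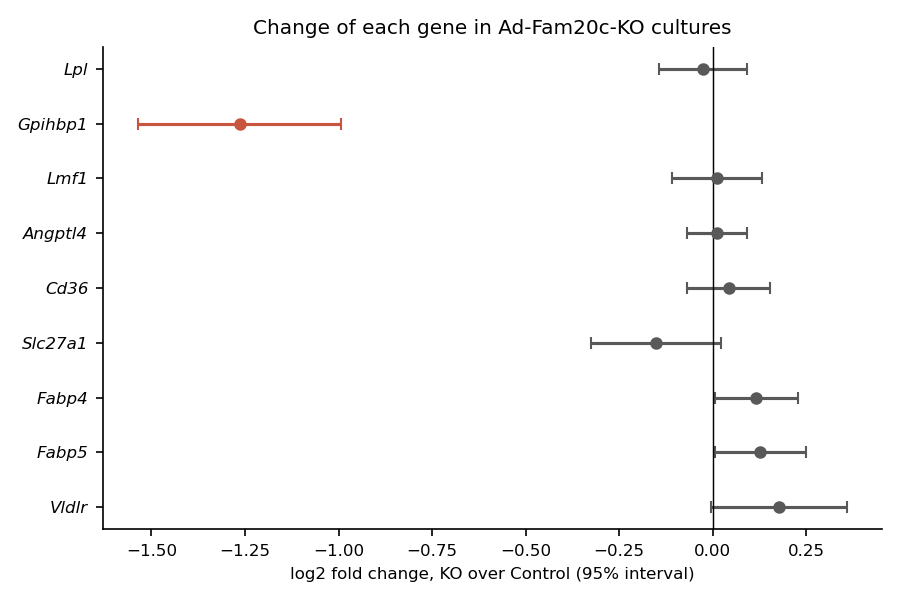
Log2 fold change of each gene, KO over control (horizontal axis), with its 95% interval from edgeR's quasi-likelihood fit. The gene in red, Gpihbp1 at -1.26, passed the test, and the 8 in gray have intervals that lie within -0.33 to 0.36.

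Markers of endothelial cells, the cell type that makes GPIHBP1, were lower in the same KO libraries. Of 21 endothelial markers, 18 were lower in KO cultures and 0 higher, and in each of these 18 the groups did not overlap. That compares with 1.86% of all genes tested that passed as lower and 2.66% with every KO library below every control library. The median log2 fold change of the 21 was -1.22. Cdh5, which encodes VE-cadherin, fell from 53.1 ± 5.11 to 22.1 ± 3.67 CPM, Pecam1, the junction protein CD31, from 42.0 ± 4.71 to 18.0 ± 4.06 CPM, and Erg, an endothelial transcription factor, from 4.61 ± 0.653 to 1.77 ± 0.399 CPM (SD, n = 5). Kdr, the receptor VEGFR2, fell from 7.89 ± 0.687 to 4.40 ± 0.568 CPM. Robo4, a guidance receptor of vessels, had the most negative value of the list, a log2 fold change of -1.65. Emcn, Egfl7, Tie1 and Plvap, further genes of endothelial cells, had log2 fold changes of -1.29, -1.24, -1.35 and -0.97. Tek, which encodes the angiopoietin receptor TIE2, was at 5.61 ± 2.12 CPM in control and 4.91 ± 0.829 CPM in KO libraries and did not pass the test, and neither did Flt1 or Vwf.

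Gpihbp1 lay inside the range of these markers. Among the 21, 8 had a more negative log2 fold change than Gpihbp1 and 13 a less negative one. Summed over the list, the markers came to 234 to 278 CPM in control and 109.7 to 152 CPM in KO libraries, 2.07-fold lower in the mean (the plot of Gpihbp1 against the endothelial markers gives each library). In bulk RNA, fewer endothelial cells and less RNA per endothelial cell cannot be told apart, and the part of either in the value of Gpihbp1 was not tested.

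**Figure D3:**
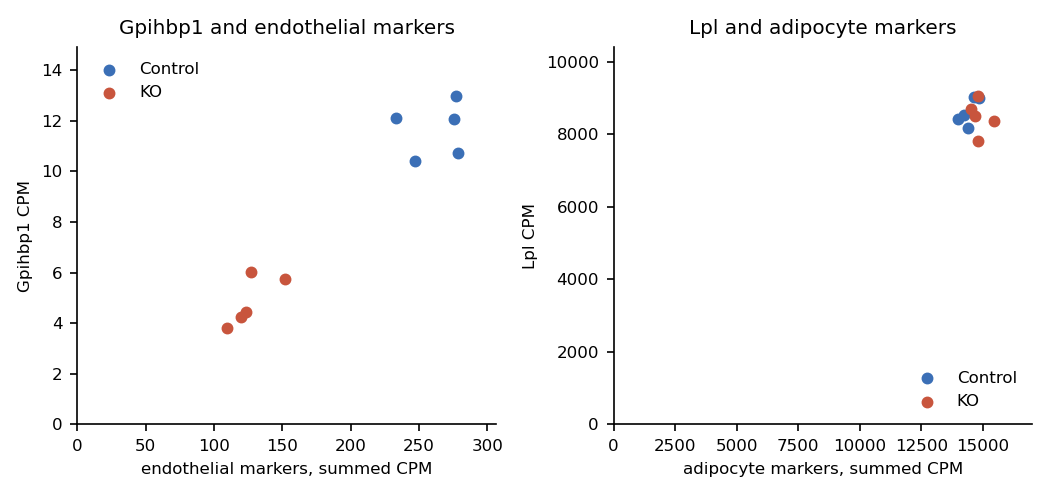
Left, CPM of Gpihbp1 against the summed CPM of 21 endothelial markers; right, CPM of Lpl against the summed CPM of 15 adipocyte markers, with 1 point per library and axes that start at 0. On the left the KO libraries (red, 109.7 to 152 summed CPM) lie below and to the left of the control libraries (blue, 234 to 278), and on the right the groups overlap on both axes.

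Set against the endothelial markers of its own library, Gpihbp1 differed less between the groups. The log2 CPM of Gpihbp1 minus the mean log2 CPM of the 21 markers was 0.48 ± 0.145 in control and 0.24 ± 0.172 in KO libraries (SD, n = 5). The difference of -0.24 had p = 0.0476 in a 2-sided exact permutation test and did not pass after adjustment over the 3 gene ratios examined (0.143). The values of the KO libraries ran from 0.11 to 0.52 and those of the control libraries from 0.29 to 0.68, so the groups overlapped. KO library 3, at 0.52, was the highest of its group. Without it the difference was -0.31 with an adjusted p of 0.0476, again from exact permutation. That was the only one of 14 alternatives for this ratio that passed. When other single libraries were left out, the adjusted p of the same test ran from 0.119 (without control library 4) to 0.286. With the 5 defining endothelial markers alone the difference was -0.30, with an adjusted p of 0.214 by exact permutation.

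The enzyme, its chaperone and its inhibitor did not pass the test. Lpl (chromosome 8, 68880491 to 68907448, plus strand) had 9038, 9003, 8425, 8159 and 8524 CPM in the control libraries in order of their number, and 7801, 9048, 8506, 8687 and 8353 CPM in the KO libraries. The lowest and the highest value were both from KO libraries, numbers 1 and 2. The means were 8629.9 ± 381 CPM in control and 8479 ± 459 CPM in KO libraries (SD, n = 5). The log2 fold change was -0.03, with a 95% interval from -0.14 to 0.09 (Benjamini-Hochberg adjusted p = 0.928 by edgeR's quasi-likelihood test). In percent, the interval ran from -9.41 to 6.57.

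Lmf1 (chromosome 17, 25579085 to 25662826, plus strand), which encodes the chaperone of the lipase, ranged from 39.9 to 43.2 CPM in control and from 38.2 to 44.9 CPM in KO libraries. The KO range enclosed the control range. Its log2 fold change was 0.01, with an interval from -0.11 to 0.13. Angptl4 (chromosome 17, 33773750 to 33781830, minus strand), the inhibitor, ranged from 852 to 914 CPM in control and from 867 to 923 CPM in KO libraries. The SD of Angptl4 was 3.00% of the mean in control and 2.38% in KO libraries, the smallest relative spread within the KO libraries among the 9 genes. Its log2 fold change was 0.01, with the narrowest interval of the 9, from -0.07 to 0.09. The log2 CPM of Angptl4 minus that of Lpl, inhibitor over enzyme, differed by 0.04 between KO and control libraries (2-sided exact permutation test, p = 0.476, adjusted 0.714).

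The fatty acid carriers of the cell surface did not pass the test either. Cd36 (chromosome 5, 17781690 to 17888801, minus strand), the scavenger receptor that takes up long-chain fatty acids, averaged 4613 ± 258 CPM in control libraries and 4751 ± 183 CPM in KO libraries. The libraries ranged from 4206 to 4843 and from 4547 to 5029.9 CPM, and 3 control and 4 KO libraries lay in the shared span. Its log2 fold change was 0.04, with an interval from -0.07 to 0.15. Slc27a1 (chromosome 8, 71568882 to 71587302, plus strand) had 137 ± 15.5 CPM in the control and 123 ± 10.7 CPM in the KO libraries, the lowest fold change after Gpihbp1. Control libraries ran from 116 to 155 CPM and KO libraries from 109.0 to 139 CPM. The log2 fold change of Slc27a1 was -0.15, with an interval from -0.33 to 0.02 (Benjamini-Hochberg adjusted p = 0.497 by edgeR's quasi-likelihood test).

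The cytosolic binding proteins had slightly higher means in KO cultures, and the call of Fabp4 depended on the tool. Fabp4 (chromosome 3, 10204088 to 10208576, minus strand), the most abundant of the 9 genes, had 20829, 20363, 20744, 20734.5 and 21356.5 CPM in the control libraries in order of their number. The KO libraries had 22988, 23095.5, 23548.5, 21829 and 21299.7 CPM. KO libraries 1 to 4 were above all control libraries, and KO library 5 was below control library 5. The means were 20805 ± 357 and 22552 ± 945 CPM (SD, n = 5), an increase of 8.40% with a 95% interval from 0.382% to 17.0%. On the log2 scale the difference was 0.12 with a standard error of 0.0511. The adjusted p was 0.387 by edgeR's quasi-likelihood test, while the unadjusted p of the same edgeR fit was 0.0411 and 11.9% of all genes tested had one under 0.05. The Wald test of DESeq2 also gave 0.12 on the log2 scale, with an adjusted p of 0.0351. With DESeq2 Fabp4 passed as the only one of the 9 genes that was higher, while Gpihbp1 was lower with both tools. The study names a DESeq2 Wald test too, but its figure gives fewer samples per group. It reported far fewer transcripts in either direction than DESeq2 called here, and whether Fabp4 was among them was not examined.

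Fabp5 lies near Fabp4 on the same chromosome, from 10012548 to 10016607 on the plus strand. It had 1567, 1552, 1679, 1815 and 1793 CPM in the control libraries and 1977, 1866, 1793, 1785 and 1759.7 CPM in the KO libraries. KO libraries 1 and 2 were above all control libraries and the other 3 lay within the control range. On the log2 scale the difference was 0.13, with an interval from 0.01 to 0.25 (Benjamini-Hochberg adjusted p = 0.386 by edgeR's quasi-likelihood test). The log2 CPM of Fabp5 minus that of Fabp4 was -3.63 ± 0.0923 in control and -3.62 ± 0.0637 in KO libraries, a difference of 0.01 (2-sided exact permutation test, p = 0.81, adjusted 0.81). Fabp5 has 5 processed pseudogenes with 93.6% to 98.3% identity to its transcript. None of them had more than 164 counts in a library, against at least 29876 counts for Fabp5.

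Vldlr (chromosome 19, 27216484 to 27254231, plus strand), the lipoprotein receptor, had the highest point estimate of the 9. It had 286.5 ± 36.5 CPM in the control and 324 ± 27.9 CPM in the KO libraries. The control libraries ran from 251.8 to 345 CPM and the KO libraries from 284 to 353 CPM. Control library 4, at 345 CPM, was above 3 of the KO libraries. The log2 fold change was 0.18, with an interval from -0.0034 to 0.36 (Benjamini-Hochberg adjusted p = 0.435 by edgeR's quasi-likelihood test).

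Over the 8 genes other than Gpihbp1, the log2 fold changes ran from -0.15 to 0.18. The lowest and highest limits of their 95% intervals were -0.33 and 0.36, which are folds of 0.798 and 1.28. For 6 of the 8 the interval included 0, the exceptions being Fabp4 and Fabp5. A change of the size seen in Gpihbp1 lay outside all 8 intervals, and changes within an interval were not excluded. With each library left out in turn, none of the 8 passed the test, and Gpihbp1 passed in all 10 of these fits.

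In absolute level the 9 genes spanned a wide range. Levels were compared per gene length, as FPKM (fragments scaled by the length of the gene and the size of the library), with the union of a gene's exons as the length. In control libraries the level was 4635 ± 79.4 for Fabp4, which ranked 5 among 14098 genes by this length. The exon union of Fabp4, 4489 bases, covers the gene from end to end, against 896 bases for its longest coding transcript. Cd36 followed with 1285 ± 71.7, Lpl with 824 ± 36.4, Fabp5 with 471 ± 34.4 and Angptl4 with 249.6 ± 7.49 FPKM (SD, n = 5). Vldlr with 28.5 ± 3.63 and Slc27a1 with 23.5 ± 2.66 were neighbors whose control libraries overlapped. Gpihbp1, with 4.57 ± 0.416, and Lmf1, with 2.99 ± 0.108, were the lowest. In KO libraries Gpihbp1 (1.90 ± 0.384) was below Lmf1 (3.01 ± 0.235), without overlap, and the order of the other 7 was the same.

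The order by level depended on which length was used. With the longest coding transcript of each gene in place of the exon union, 2 of the 9 genes kept their rank in control libraries, Fabp4 (23220.4) and Angptl4 (267). Lpl was then second with 2097 FPKM, Fabp5 had 1703 and Cd36 1357. Gpihbp1, with 7.06, was then below Lmf1 with 20.3 in control libraries too (the plot of levels per length gives both measures). With the longest transcript of any kind, 3 of the 9 kept their rank. Fabp4 was first under each of these lengths.

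**Figure D4:**
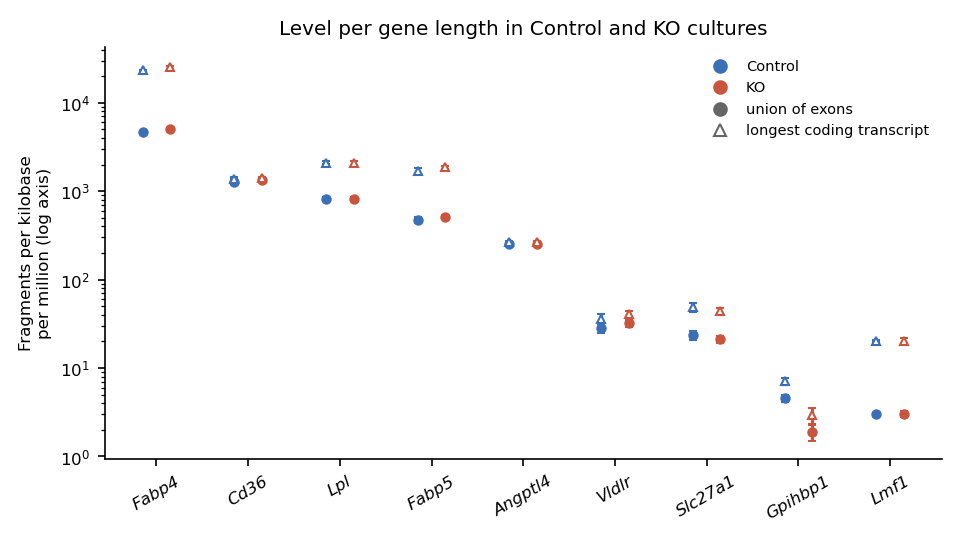
Level of each gene in FPKM on a log axis, control in blue and KO in red, as mean ± SD over 5 libraries, with circles for the union of exons and triangles for the longest coding transcript. Fabp4 is highest under both lengths, and Gpihbp1 is the gene whose control and KO points are farthest apart.

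Genes around the system were counted on lists. Of 25 genes that regulate the lipase or bind lipoproteins, 19 were abundant enough to be tested. Of these, 2 were lower and 1 was higher, and the median log2 fold change was -0.05. The shares over all genes tested were 1.86% lower and 0.308% higher. At an unadjusted p under 0.05 in edgeR, 6 of the 19 were lower and 3 higher, against 11.9% of all genes tested in either direction. Lipg, which encodes endothelial lipase, a relative of lipoprotein lipase, fell from 20.4 ± 3.17 to 13.6 ± 1.52 CPM, a log2 fold change of -0.59 with libraries that overlapped (Benjamini-Hochberg adjusted p = 0.0146 by edgeR's quasi-likelihood test). Sdc1, the heparan sulfate proteoglycan syndecan 1, fell from 117 ± 5.34 to 98.8 ± 5.29 CPM, a log2 fold change of -0.24. Apoc1, an apolipoprotein that can inhibit the lipase, rose from 71.9 ± 4.59 to 86.2 ± 4.61 CPM, a log2 fold change of 0.26. These 3 calls were less stable than that of Gpihbp1: Lipg passed in 9, Sdc1 in 8 and Apoc1 in 6 of the 10 fits that left out 1 library. Lipg and Sdc1 did not pass without KO library 2 (adjusted p = 0.0529 and 0.0701), nor Sdc1 without KO library 5 (0.0517), nor Apoc1 without control library 1, 3 or 5 or KO library 2 (0.0509 to 0.0640, all from edgeR's quasi-likelihood test).

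A further 3 genes of that list had groups that did not overlap (3.97% of all genes tested) without passing the test. The proprotein convertases, which cleave the lipase and its regulators, include Pcsk5, at 43.4 ± 1.80 CPM in control and 38.6 ± 0.767 CPM in KO libraries, and Pcsk6, at 20.3 ± 1.03 and 22.7 ± 1.46 CPM. Meox2, a transcription factor of fatty acid transport in endothelial cells of the heart, had 4.47 ± 0.529 and 3.05 ± 0.709 CPM. With DESeq2, Pcsk5 and Meox2 passed as well, and with limma voom Pcsk5 and Apoe (log2 fold change -0.31 in edgeR). Each of these tools thus called 4 genes of the list lower in place of 2. Of all 14270 genes, DESeq2 called 359 lower and limma voom 347.

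No gene of fatty acid transport, binding and activation outside the 9 passed the test. Of 25 on this list 17 were tested, 0 were lower and 0 higher by edgeR's quasi-likelihood test, by DESeq2 and by limma voom, and the median log2 fold change was -0.02. At an unadjusted p under 0.05, 1 was lower, Scarb1, and 0 were higher, against 11.9% of all genes tested in either direction. The lowest p-values belonged to Scarb1, the HDL receptor, at 227 ± 12.4 CPM in control and 209.8 ± 13.6 CPM in KO libraries, and to the transporter genes Slc27a6 and Slc27a3, with log2 fold changes of -0.33 and -0.20. Among PPARG target genes outside the 9, all 25 were tested, 0 were lower and 3 higher, and the median was 0.05. Of all genes tested, 0.308% passed as higher. At an unadjusted p under 0.05 in edgeR, 6 of the 25 were higher and 0 lower. DESeq2 and limma voom also called 0 lower and added Cidea and Lipe, for 5 higher. Of all 14270 genes these tools called 125 and 111 higher. This list shares Lipe, Adipoq and other genes with the adipocyte markers, so the lists are not independent. Pdk4, which encodes a kinase that turns down glucose oxidation, rose from 376 ± 28.3 to 457 ± 14.8 CPM, a log2 fold change of 0.28. Plin5, a lipid droplet protein, rose from 73.9 ± 3.36 to 89.9 ± 6.93 CPM. Ucp1, the uncoupling protein of thermogenic adipocytes, rose from 15.9 ± 5.62 to 29.1 ± 3.96 CPM with libraries that overlapped. Pdk4 passed in 10, Plin5 in 8 and Ucp1 in 3 of the 10 fits that left out 1 library. Plin5 did not pass without control library 3 or 5 (adjusted p = 0.0536 and 0.0504, edgeR), nor Ucp1 without control library 1, 2, 3 or 5 or KO library 2, 4 or 5 (0.0575 to 0.0856). The PPARG targets among the 9 (Lpl, Angptl4, Cd36, Slc27a1 and Fabp4) had log2 fold changes from -0.15 to 0.12.

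**Figure D5:**
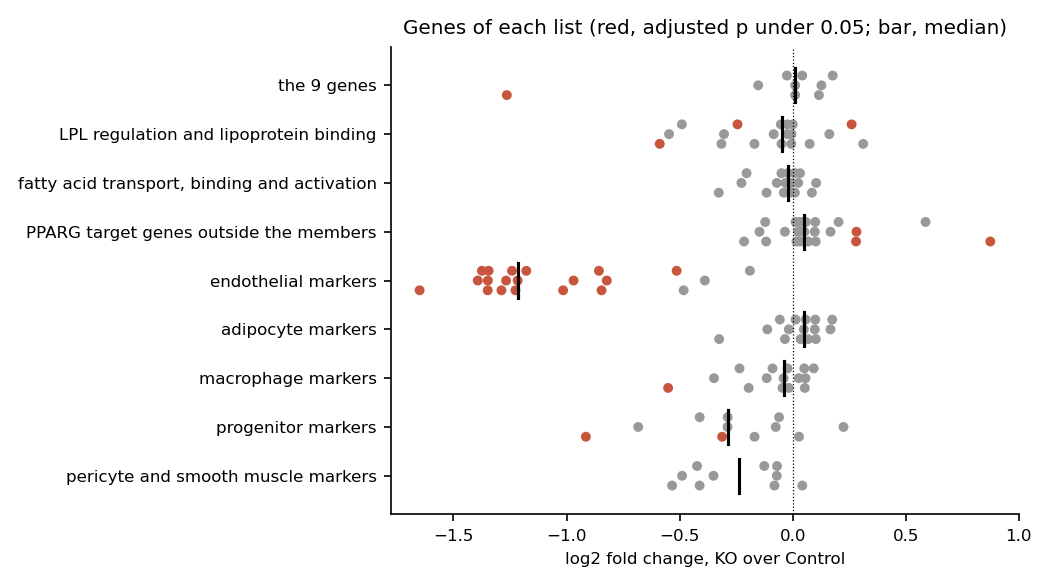
Log2 fold change, KO over control, of each gene of the 9 and of the 8 lists, with genes that passed the test in red and the median of each list as a black bar. The endothelial markers have their median at -1.22 and the lists of fatty acid transport and of adipocyte markers theirs at -0.02 and 0.05.

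Markers of the other cell types had medians closer to 0 than those of endothelial cells. Over all genes tested, 1.86% passed as lower in edgeR, and 11.9% had an unadjusted p under 0.05 in either direction. Adipocyte markers summed to 14008 to 14837 CPM in control and 14516 to 15451 CPM in KO libraries, and the lowest p-values belonged to Lipe, Pparg and Cfd, with log2 fold changes of 0.17, 0.10 and 0.18. Of 15 macrophage markers, 1 was lower, the scavenger receptor gene Cd163, with a log2 fold change of -0.55. The summed level of that list was 1639 to 2509.6 CPM in control and 1420.2 to 2346 CPM in KO libraries. Of 12 progenitor markers 11 were tested and 2 were lower, Cd34 with -0.91 and Pdgfra with -0.31. The median of the 11 was -0.29, with 9 below 0, and 5 were lower and 0 higher at an unadjusted p under 0.05 in edgeR. DESeq2 and limma voom each called 3 lower, with Anxa3 (-0.29) added. The progenitor markers summed to 834 to 1076 CPM in control and 818 to 934 CPM in KO libraries. CD34 is also carried by endothelial cells. Of 12 pericyte and smooth muscle markers 10 were tested and 0 passed in edgeR, DESeq2 or limma voom, and 5 were lower at an unadjusted p under 0.05 in edgeR, with a median log2 fold change of -0.24 and the lowest p-values for Abcc9, Tagln and Kcnj8. All defining markers of these 4 cell types had counts in every library, with Rgs5, of pericytes, too low to be tested.

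Across the 10 libraries, the genes whose log2 CPM followed that of Gpihbp1 most closely, among 11715 genes compared, were Tmem252, Cldn5 and St8sia4. Pearson's r was 0.993, 0.988 and 0.985. These points share the group difference of all 4 genes, and over deviations from the group means r was 0.924, 0.922 and 0.852. Cldn5 is also on the list of endothelial markers, at 10.6 ± 1.18 CPM in control and 4.15 ± 1.26 CPM in KO libraries.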

How the data were processed

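RNA-seq of 5 control and 5 KO libraries was analyzed. The authors used SMARTer v4 cDNA and Nextera XT library kits, aligned the reads to GRCm38 (mm10 per the labels) with STAR, counted fragments per gene with featureCounts and deposited raw counts without normalization. The strand setting is not given in the sources used here. The labels do not say that libraries came from separate animals, so p-values measure the spread between these libraries. Depth was 18949106 to 26237825 counts per library.

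The counts were filtered (filterByExpr, minimum count 10), scaled by TMM and fitted in edgeR 4.0.16 (R 4.3.3), and the unpaired quasi-likelihood test of KO over control was adjusted by Benjamini-Hochberg, with a limit of 0.05. A prior count of 2 entered log2 CPM. Standard errors came from dividing a log2 fold change by the root of its F. The 3 gene ratios were compared by 2-sided exact permutation, where the smallest p is 0.00794. Positions and lengths came from GENCODE M21, matched by gene identifier for 14098 of 14270 genes tested; 52088 of 52125 matched identifiers carried a higher version in the table than in M21, so the authors counted against a later annotation. None of the 9 overlaps another gene of M21. Pseudogenes were found by BLAST 2.17.0.

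The 9 genes and the lists were chosen with earlier results of these data known. The values of 1 list gene are not reported here, and the list counts include it. Named were Fam20c, the 9 genes, list genes past the limit (at most 8 per list) or else the 3 with the lowest p, defining markers, and for each of the 9 the 3 genes with the highest Pearson's r over libraries, among genes whose log2 CPM averaged at least 1. Flt1, Vwf, Pcsk5, Pcsk6, Meox2, Apoe, Anxa3 and Cidea were named after their values were seen. Alternatives were DESeq2 1.42.0 (Wald test, size factors), limma 3.58.1 voom with sample quality weights, other filters, a prior count of 0.5, a replicate block, and libraries left out. Levels by longest coding transcript, and all alternatives for list genes, were added after seeing the data. Scripts were tested on simulated counts.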

Additional observations from a re-analysis of the deposited data

Results flagged for a closer look

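Lmf1 had 43.2 CPM in control library 2, apart from the 39.9 to 40.2 CPM of the other 4 control libraries. The pericyte and smooth muscle markers summed to 218 CPM in KO library 3, below the 268 to 271 CPM of the other 4. A gap test of the highest and lowest library (Dixon's ratio above 0.71) was made in 36 groups of 5 libraries, of which chance gives about 1.8, and these 2 passed it.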

How the results depend on the processing

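Gpihbp1 was lower and passed the test under all 17 alternatives, with log2 fold changes from -1.35 to -1.19 and adjusted p-values from 3.25e-18 to 0.00113. The other 8 genes did not pass, except that Fabp4 passed as higher with DESeq2, where 1 of the 9 genes was called higher. The number of genes called higher was 125 of 484 calls with DESeq2 against 44 of 309 in the main analysis, 111 with limma voom, 145 without control library 4 and KO library 1 together, and 19 to 119 with each library left out. The number called lower was 164 to 323 with each library left out, the lowest count being without KO library 2, and 119 higher genes were found without control library 4. The cause was not tested. Directions of values near 0 changed without single libraries: Angptl4 was -0.00185 without control library 1, Lpl 0.00576 without KO library 1, and Lmf1 -0.0222 and -0.0144 without KO libraries 3 and 5, within ranges of -0.00185 to 0.0236, -0.0436 to 0.00576 and -0.0222 to 0.0416. The difference of Fabp5 relative to Fabp4 ran from -0.0114 to 0.0432 (-0.00671 without control library 2 and -0.0062 without KO library 1), and that of Gpihbp1 relative to the endothelial markers from -0.31 to -0.19. The order of levels kept 3 of 9 ranks with the longest transcript and 2 of 9 with the longest coding transcript. Same-numbered libraries did not deviate together: their correlations were -0.25 to 0.26 and 1 of 5 numbers had its best partner in itself. The labels do not say what the numbers mark, and these correlations cannot show whether same-numbered cultures were prepared together. A replicate block left 193 lower and 21 higher genes, with Gpihbp1 at -1.28 (adjusted p = 0.00113), and Apoc1, Sdc1, Lipg and Plin5 did not pass in it. Between 17 and 19 endothelial markers were called lower under all alternatives. Depth limits Gpihbp1 most, the member with the fewest counts.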

Other observations

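For the other 8 genes, the genes with the most similar log2 CPM over the 10 libraries were found among the same 11715 genes. Pearson's r was 0.966 for Far1, 0.960 for Negr1 and 0.951 for Wdr75 with Lpl, and these values were nearly the same over deviations from the group means (0.973, 0.959 and 0.953). Vldlr was followed by Rbbp9 (0.977), the desaturase gene Scd1 (0.969) and Zfp280d (0.956), and Slc27a1 by Ddx55 (0.955), Tspyl2 (0.938) and Vps52 (0.933). For Cd36 the genes were Pcmtd1 (0.949), Ufl1 (0.933) and Shprh (0.933). For Fabp5 they were Ezr (0.938), Dnajc19 (0.938) and Zfp277 (0.935), and for Fabp4 Crbn (0.924), Fam104a (0.914) and Ift88 (0.906). Angptl4 had Nol3 (0.902), Ndufa1 (0.890) and Suds3 (0.888), and Lmf1 had 3110056K07Rik (0.898), Sgta (0.894) and Srebf1 (0.873). None of these 24 genes passed the test of KO against control. They were picked as the highest of many correlations over 10 points, in which control library 4 and KO library 1 stood apart on the first principal component, so the values are descriptions.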
